A study of Mus musculus with 28 samples.

Results

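Natural antisense RNAs are transcribed from the strand opposite a gene. Some of them alter the transcription, splicing or stability of the gene they face, and many have no known role. The genes described here are 5 noncoding genes and 3 coding genes, 8 of the 45513 rows of a table of gene counts from mouse heart. The noncoding genes RP23-230H3.6, AC113514.2, RP24-63G9.2, RP23-404D8.10 and RP23-8D10.2 were chosen by their p-values, each near the top of all genes in 1 comparison of the groups or in the relation with mouse number. The coding genes Actc1, Hectd2 and Senp6 were chosen because they lie next to or across from the first 3. The values that chose a gene are given below as a description, with no test.

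The libraries came from ventricular myocardium of 28 male C57BL/6 mice, labelled adult, 1 library to a mouse. At 6 weeks of age the mice had either a 5/6 nephrectomy in 2 stages, which removes most kidney tissue and models chronic kidney disease (CKD), or a sham operation. On day 7 each mouse was gavaged once with Oxalobacter formigenes (Oxf), a gut bacterium that degrades oxalate, in culture medium, or with the medium alone (vehicle). All mice, the controls included, ate a diet with 1% hydroxyproline, an oxalate precursor, and 0.5% calcium, so no group had an ordinary diet. The vehicle groups are sham-vehicle (10 mice) and CKD-vehicle (6), and the Oxf groups are sham-Oxf (5) and CKD-Oxf (7). By design each group had 10 mice, and the rest were not analysed here. Mouse numbers run from 901 to 910, 913 to 920, 921 to 929 and 931 to 940 in that order, so an effect of number cannot be told apart from one of group.

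The libraries held 19.8 to 65.4 M counts. The summed ventricular cardiomyocyte markers (Myl2, Myh6, Tnnt2, Tnni3 and Myl3) reached at least 13911 CPM (the usual scaling of counts to library size, here with TMM factors) in each library, and no marker of that list was at 0 in all libraries. In bulk tissue, fewer cells of a type and less RNA per cell cannot be told apart. Sham-Oxf replicate 1 stood apart, with 15879 genes detected against 27128 to 33995 in the other 27 libraries. Of the 10750 genes with at least 100 counts in each of the other 27, 247 were at 0 in this library, Hectd2 among them. By the same rule no other library had any gene at 0. Results that rest on sham-Oxf replicate 1 are given with and without it. The clock score, the mean log2 level of 10 genes around Dbp and Per1 minus that of 4 genes around Arntl, had a range of 0.44 to 4.05 for sham-vehicle and -0.47 to 1.76 for CKD-vehicle, beside 2.87 to 4.38 for sham-Oxf and 1.93 to 3.98 for CKD-Oxf. CKD-vehicle lay wholly below both Oxf groups. The share of counts from 7SL RNA ran from 1.83% to 21% over the libraries.

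In the GENCODE M21 annotation (build GRCm38), 3 of the 5 noncoding genes are of the antisense type, and the label does not hold for the other 2. RP23-230H3.6 (C130080G10Rik there, chr2:114054335-114064868, plus strand, 2586 exonic bases in 5 transcripts) begins 786 bases from Actc1 (chr2:114047282-114053548, minus strand). These genes run away from each other and share no base. RP23-230H3.6 overlaps another noncoding gene of its own strand, RP23-230H3.2, over 1001 exonic bases. AC113514.2 (Hectd2os, chr19:36614052-36705641, minus strand) overlaps the end of Hectd2 (chr19:36554639-36621135, plus strand) by 7084 bases, of which 1834 are exonic in both. RP24-63G9.2 (Gm17477, chr9:80118895-80121937, minus strand) lies inside Senp6 (chr9:80066903-80144953, plus strand), with 108 bases in exons of both and 2473 in introns of Senp6. RP23-8D10.2 (Gm45909, chr8:93190328-93191358) has the type TEC, used for transcripts that lack experimental evidence, and lies wholly in an intron of Ces1d (chr8:93166068-93197838) on the same, minus strand. RP23-404D8.10 (Gm9517, chr12:113629994-113630867, minus strand) is a processed pseudogene, a copy of a spliced messenger RNA put back into the genome, among immunoglobulin heavy chain variable genes. Ces1d and Ankrd12 were added as partners of the last 2 once the annotation and the sequence had been read. Whether the counting used strand is not given in the sources used here, so reads from bases that 2 genes share may count for either, both or neither.

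**Figure D1:**
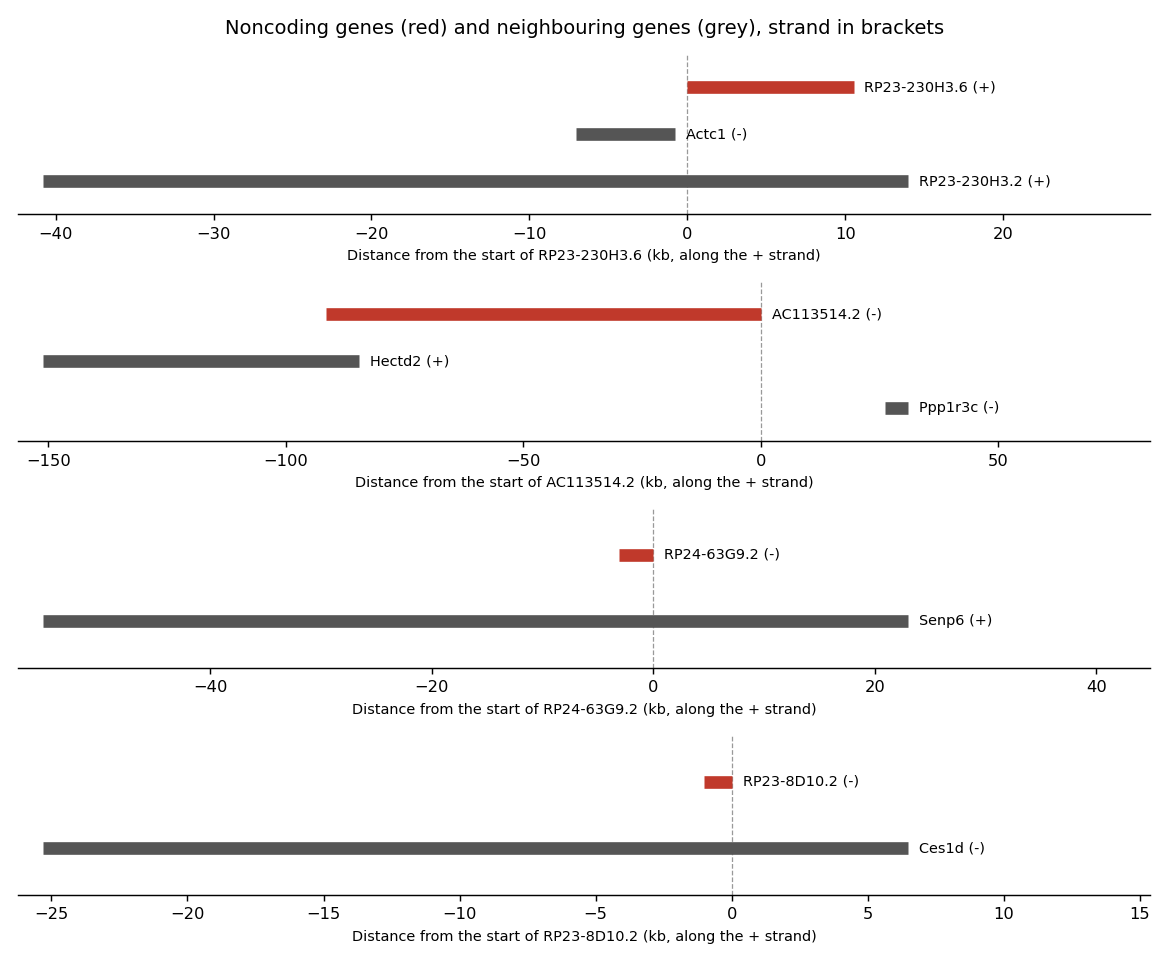
Gene bodies drawn to scale in kb from the start of each noncoding gene (dashed line), with the strand in brackets. RP23-230H3.6 points away from Actc1 with a gap of 786 bases, AC113514.2 overlaps the end of Hectd2, and RP24-63G9.2 and RP23-8D10.2 lie inside their partners.

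Over its whole length of 874 bases RP23-404D8.10 matched a protein-coding transcript of Ankrd12 (chr17:65965698-66077089, minus strand) at 871 positions, an identity of 99.66%. The 3 differences are C222G, T324C and G693A, with the base of Ankrd12 first and positions counted from the 5′ end of the pseudogene. They stand in capitals within 21 bases, since only reads that cover one of these positions can tell the pseudogene from its source.
Ankrd12 around position 222: atgaggagcgCgactcagaca
RP23-404D8.10 around position 222: atgaggagcgGgactcagaca
Ankrd12 around position 324: gttatccactTtctgaacgaa
RP23-404D8.10 around position 324: gttatccactCtctgaacgaa
Ankrd12 around position 693: atgacaccccGctccatgact
RP23-404D8.10 around position 693: atgacaccccActccatgact

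The transcript of RP24-63G9.2, 2581 bases long, holds a tandem repeat with a unit of 46 bases. The repeat spans positions 1845 to 2280, about 9.5 copies at 85% identity or more, and makes up 16.9% of the transcript. Reads from it can align at several places, and their treatment is not given in the sources used here.
RP24-63G9.2 repeat unit: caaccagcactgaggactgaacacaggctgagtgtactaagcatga

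The stretches in front of Actc1 and around the start of RP23-230H3.6 are shown because these genes start near each other and their levels moved together within groups, as given below. The RefSeq windows (build GRCm38.p6) matched 4 of the 8 genes. The Actc1 window is chr2:114052876-114053125, the 250 bases before the RefSeq start, on the minus strand. The GENCODE gene body of Actc1 given above reaches beyond that start and holds the whole window. The window therefore does not lie in the gap of 786 bases between the GENCODE genes. Capitals in the Actc1 window mark a CArG box, the motif of serum response factor, 47 to 38 bases before the RefSeq start. A CArG box on either strand occurs in 1.63% of 32851 RefSeq windows of 300 bases. The RP23-230H3.6 window is chr2:114054146-114054445 on the plus strand, 250 bases before and 50 after the RefSeq start.
Actc1 upstream: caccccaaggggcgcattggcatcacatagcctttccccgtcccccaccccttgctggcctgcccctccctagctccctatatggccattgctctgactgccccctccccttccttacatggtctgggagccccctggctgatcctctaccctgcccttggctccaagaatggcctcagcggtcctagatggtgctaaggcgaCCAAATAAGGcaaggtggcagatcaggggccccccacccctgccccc
RP23-230H3.6 start: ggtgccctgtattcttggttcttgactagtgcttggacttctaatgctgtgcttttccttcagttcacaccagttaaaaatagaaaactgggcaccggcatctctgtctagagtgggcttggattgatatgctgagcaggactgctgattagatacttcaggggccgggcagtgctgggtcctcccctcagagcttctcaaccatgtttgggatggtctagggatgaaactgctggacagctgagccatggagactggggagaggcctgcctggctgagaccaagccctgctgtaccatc
The RP23-230H3.6 window held no CArG box. Neither window held CACGTG, the E-box bound by clock factors, or TTATGNAA, the D-box bound by the Dbp family, each searched on both strands and present in 7.15% and 3.38% of the same windows.

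RP23-230H3.6 was highest in CKD-vehicle. Its levels were 10.7 to 17.9 CPM (median 13.3) under sham-vehicle, 17.9 to 26.0 (median 21.8) under CKD-vehicle and 14.0 to 21.8 (median 17.0) under CKD-Oxf. The 5 sham-Oxf mice had 14.3, 13.3, 14.3, 16.1 and 15.2 CPM. Every CKD-vehicle mouse lay above every sham-vehicle and every sham-Oxf mouse, while the CKD-Oxf mice overlapped all 3 other groups.

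The group means of RP23-230H3.6, in rising order, were 13.7 ± 2.43 in sham-vehicle (SD, n = 10), 14.6 ± 1.05 in sham-Oxf (n = 5), 17.5 ± 2.76 in CKD-Oxf (n = 7) and 22 ± 2.80 CPM in CKD-vehicle (n = 6). The sham groups differed by less than their SDs. CKD-vehicle minus sham-vehicle chose this gene, with a log2 difference of 0.68 ± 0.11 (standard error), first of 24273 genes in p. Of all genes tested there 0.00824% passed the edgeR threshold (adjusted p under 0.05), a share read here for background alone. In the mice that this comparison did not use, CKD-Oxf minus sham-Oxf was 0.26 ± 0.13 (edgeR adjusted p 0.641). No gene passed in that comparison (0% of those tested), with 1997 genes at an unadjusted p under 0.05, 100 passed with DESeq2 and 0 with limma voom. CKD-Oxf minus CKD-vehicle, which shares the CKD-vehicle libraries, was -0.33 ± 0.12.

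Actc1 encodes cardiac alpha-actin, the main actin of the thin filament in heart muscle. Its levels were 630 to 1749 CPM (median 881) under sham-vehicle, 1216 to 2897 (median 1466) under CKD-vehicle and 487 to 1096 (median 897) under CKD-Oxf. In sham-Oxf the 5 values were 1177, 622, 1087, 937 and 599 CPM. All CKD-vehicle mice lay above all mice of both Oxf groups and overlapped sham-vehicle. The means were 871 ± 213 CPM for CKD-Oxf, 884 ± 265 for sham-Oxf, 1070.3 ± 417 for sham-vehicle and 1698 ± 650 for CKD-vehicle (SD, n = 7, 5, 10 and 6), and the 3 lowest differed by less than their SDs.

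None of the differences of Actc1 passed the threshold by edgeR. CKD-vehicle minus sham-vehicle was 0.67 ± 0.24 in log2 (edgeR adjusted p 0.955). CKD-Oxf minus CKD-vehicle was -0.96 ± 0.26 (adjusted p 0.196), where 0.033% of all genes passed, and sham-Oxf minus sham-vehicle was -0.28 ± 0.26 (adjusted p 0.699). Averaged over surgery, Oxf minus vehicle was -0.62 ± 0.19 (adjusted p 0.0595). In that comparison 2.81% of all genes passed. DESeq2 and limma voom put 2 differences of Actc1 past the threshold, CKD-Oxf minus CKD-vehicle (adjusted p 0.0309 and 0.0144) and the averaged one (0.0137 and 0.00932). In edgeR, the first passed without CKD-Oxf replicate 4 (adjusted p 0.039). The averaged one passed with at least 10 counts asked of every library (adjusted p 0.0323). It also passed without sham-vehicle replicate 2 or 9 (0.0426 and 0.0434), CKD-vehicle replicate 5 (0.0353), sham-Oxf replicate 1 or 3 (0.0497 and 0.043) or CKD-Oxf replicate 4 (0.0193), at -0.65 to -0.68. With the clock score as a covariate the averaged difference was -0.14. CKD-Oxf minus sham-Oxf was -0.02 ± 0.28 (adjusted p 0.995), and 0.10 without sham-Oxf replicate 1.

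The summed ventricular cardiomyocyte markers were 13911 to 28276 CPM under sham-vehicle and 24912 to 38641 under CKD-vehicle, against 15703 to 22980 under sham-Oxf and 18771 to 33863 under CKD-Oxf. They were high in CKD-vehicle as Actc1 was, above every sham-Oxf mouse, and their part in its levels was not tested. Muscle actin genes have similar coding sequences, among which reads may be shared.

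Around RP23-230H3.6, the overlapping noncoding gene RP23-230H3.2 had 0.66 ± 0.24 for CKD-vehicle minus sham-vehicle and -0.82 ± 0.26 for CKD-Oxf minus CKD-vehicle (edgeR adjusted p 0.955 and 0.224). Its level was 1.58 to 2.80 CPM in CKD-vehicle and 0.77 to 2.11 in sham-vehicle. Aqr, a splicing helicase 36301 bases away, had group means of 32.8 to 35.1 CPM.

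**Figure D2:**
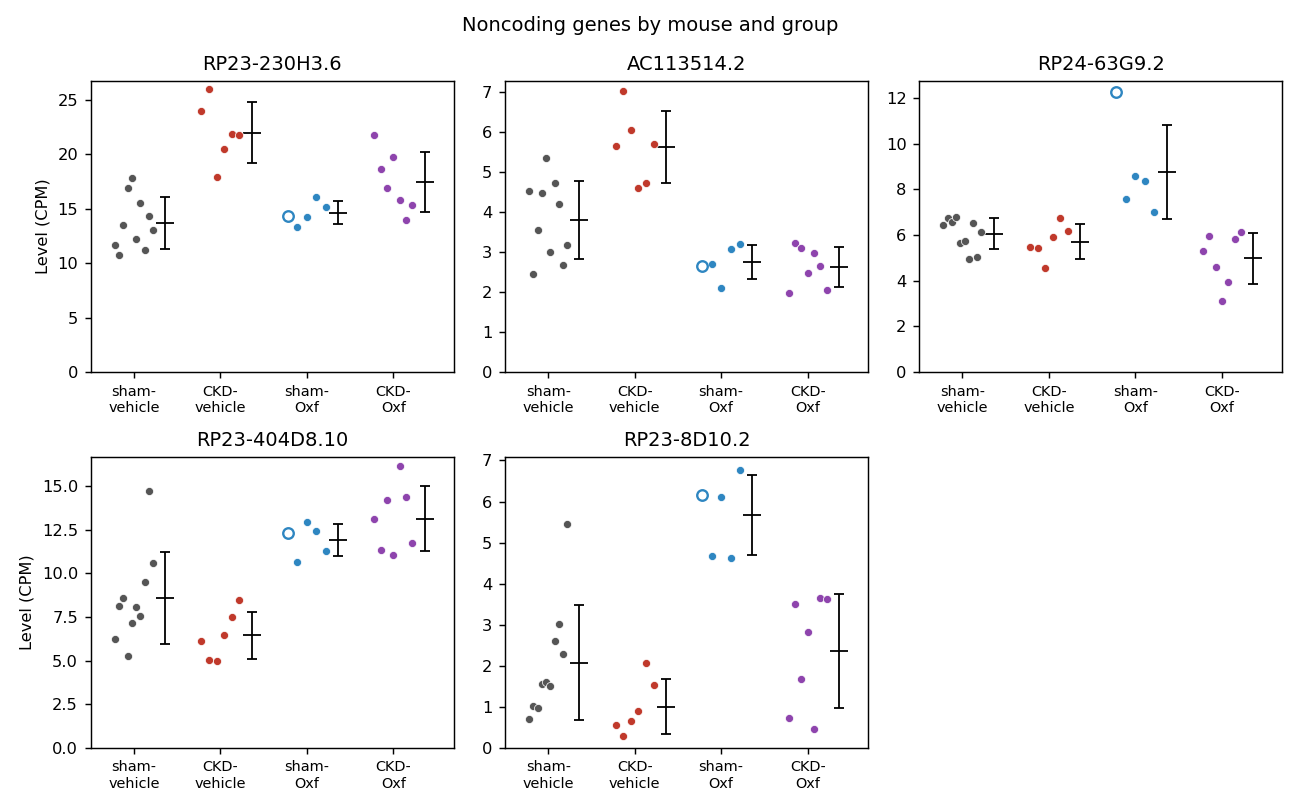
Levels in CPM of the 5 noncoding genes in every mouse, with the group mean and SD beside the points and sham-Oxf replicate 1 as an open circle. RP23-230H3.6 and AC113514.2 were highest in CKD-vehicle, RP24-63G9.2 and RP23-8D10.2 in sham-Oxf, and RP23-404D8.10 in both Oxf groups.

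Within groups, RP23-230H3.6 and Actc1 moved together. As deviations from the group means of log2 CPM, they had a Pearson r of 0.51 and a Spearman rho of 0.49 over 28 mice (permutation p 0.0114 and 0.0148 within groups, adjusted p 0.0253 and 0.0417 over 20 relations). Without the 2 mice farthest from the median, r was 0.45. In sham-vehicle by itself r was 0.84 (permutation p 0.00412, n = 10), against 0.18 for CKD-vehicle (exact permutation p 0.719, n = 6) and 0.23 for CKD-Oxf (exact permutation p 0.635, n = 7). The differences between these values of r were not tested. The pooled relation did not pass with DESeq2 size factors (r 0.44, adjusted p 0.0595), with the 7SL share regressed out (0.39, 0.113), or without sham-vehicle replicate 2 (0.46), sham-vehicle replicate 4 (0.45) or CKD-vehicle replicate 2 (0.46). Without sham-Oxf replicate 1 it was 0.53 (adjusted p 0.0199).

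Ratios of CPM are not scaled by length, so they serve to compare groups and not the levels of the 2 genes. RP23-230H3.6 was 1.39 ± 0.33% of Actc1 under sham-vehicle and 1.42 ± 0.46% under CKD-vehicle, against 1.78 ± 0.56% under sham-Oxf and 2.13 ± 0.77% under CKD-Oxf (SD, n = 10, 6, 5 and 7). In CKD-Oxf against sham-Oxf, libraries that did not choose the gene, the log2 ratio differed by 0.26 (two-sided exact permutation p 0.351). This is 1 of 6 ratio comparisons, none of which passed adjustment over the 6.

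AC113514.2 was high in CKD-vehicle and low in both Oxf groups. Its levels were 2.44 to 5.33 CPM (median 3.87) under sham-vehicle, 4.58 to 7.01 (median 5.66) under CKD-vehicle and 1.97 to 3.21 (median 2.63) under CKD-Oxf. The 5 values of sham-Oxf were 2.66, 2.70, 2.09, 3.08 and 3.2 CPM. No mouse of either Oxf group reached the lowest CKD-vehicle mouse, and all 12 lay below the sham-vehicle median. The means were 2.63 ± 0.49 for CKD-Oxf, 2.75 ± 0.44 for sham-Oxf, 3.80 ± 0.97 for sham-vehicle and 5.62 ± 0.89 CPM for CKD-vehicle, with the Oxf groups within 1 SD of each other.

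CKD-Oxf minus CKD-vehicle chose AC113514.2, with a log2 difference of -1.10 ± 0.19, second of 24273 genes. In mice that this comparison did not use, sham-Oxf minus sham-vehicle was -0.47 ± 0.19 (edgeR adjusted p 0.301). No gene passed there (0%), with 3054 genes at an unadjusted p under 0.05, 131 past the threshold with DESeq2 and 34 with limma voom. Without sham-Oxf replicate 1 the difference was -0.46 (adjusted p 0.531).

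Hectd2 encodes a ubiquitin ligase of the HECT family. Its levels were 4.27 to 6.39 CPM (median 5.30) under sham-vehicle, 4.58 to 6.45 (median 5.32) under CKD-vehicle and 3.16 to 4.88 (median 3.83) under CKD-Oxf. In sham-Oxf, replicate 1 had 0 counts, which allows up to 0.142 CPM (3 counts, counting error only), and the others had 5.02, 4.66, 4.97 and 5.00 CPM. Apart from that library the groups overlapped, and each of the 7 CKD-Oxf mice lay below the CKD-vehicle median. CKD-Oxf minus CKD-vehicle was -0.42 ± 0.37 (edgeR adjusted p 0.634). Oxf minus vehicle averaged over surgery was -0.42 ± 0.26 (adjusted p 0.343), and -0.26 without sham-Oxf replicate 1 (adjusted p 0.0775).

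AC113514.2 and Hectd2 had no clear relation over all mice (r 0.07, rho 0.23, permutation p 0.610 and 0.198, n = 28), and r was 0.31 without sham-Oxf replicate 1 (adjusted p 0.193). In CKD-vehicle they rose and fell together, with r 0.97 (exact permutation p 0.00556, adjusted p 0.0185, n = 6) and r 0.91 over the 4 mice left without the 2 farthest from the median. With the 7SL share regressed out, r there was again 0.97, with an adjusted p of 0.0525. In sham-vehicle r was 0.30 and in CKD-Oxf 0.06. The level of AC113514.2 was 103 ± 4.74% of Hectd2 in CKD-vehicle, 72.1 ± 18.6% in sham-vehicle, 56.2 ± 8.74% in the 4 sham-Oxf mice with Hectd2 counts, and 66.8 ± 17.2% in CKD-Oxf. The log2 ratio in sham-Oxf minus sham-vehicle was -0.33 (two-sided exact permutation p 0.123). These genes share exonic bases, and how reads there were counted is not given in the sources used here, so their counts may depend on each other.

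Ppp1r3c lies 26089 bases beyond AC113514.2 and encodes the subunit that brings protein phosphatase 1 to glycogen. It fell with Oxf averaged over surgery, by 0.71 ± 0.17 in log2 (edgeR adjusted p 0.0349). Its levels were 26.2 to 69.7 CPM (median 36.8) under sham-vehicle, 34.2 to 85.6 (median 55.0) under CKD-vehicle and 20.7 to 46.7 (median 29.7) under CKD-Oxf. Sham-Oxf had 43.3, 18.04, 29.2, 23.3 and 24.4 CPM. Given the clock score as a covariate the difference was -0.0057 (adjusted p 0.998), and with the 7SL share -0.39 (adjusted p 0.157). It passed in 17 of 28 fits that each left out 1 library, with adjusted p from 0.004 to 0.0658, and failed without sham-vehicle replicate 4 or 7, CKD-vehicle replicate 1, 2 or 3, sham-Oxf replicate 2, 4 or 5, or CKD-Oxf replicate 2, 3 or 6.

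**Figure D3:**
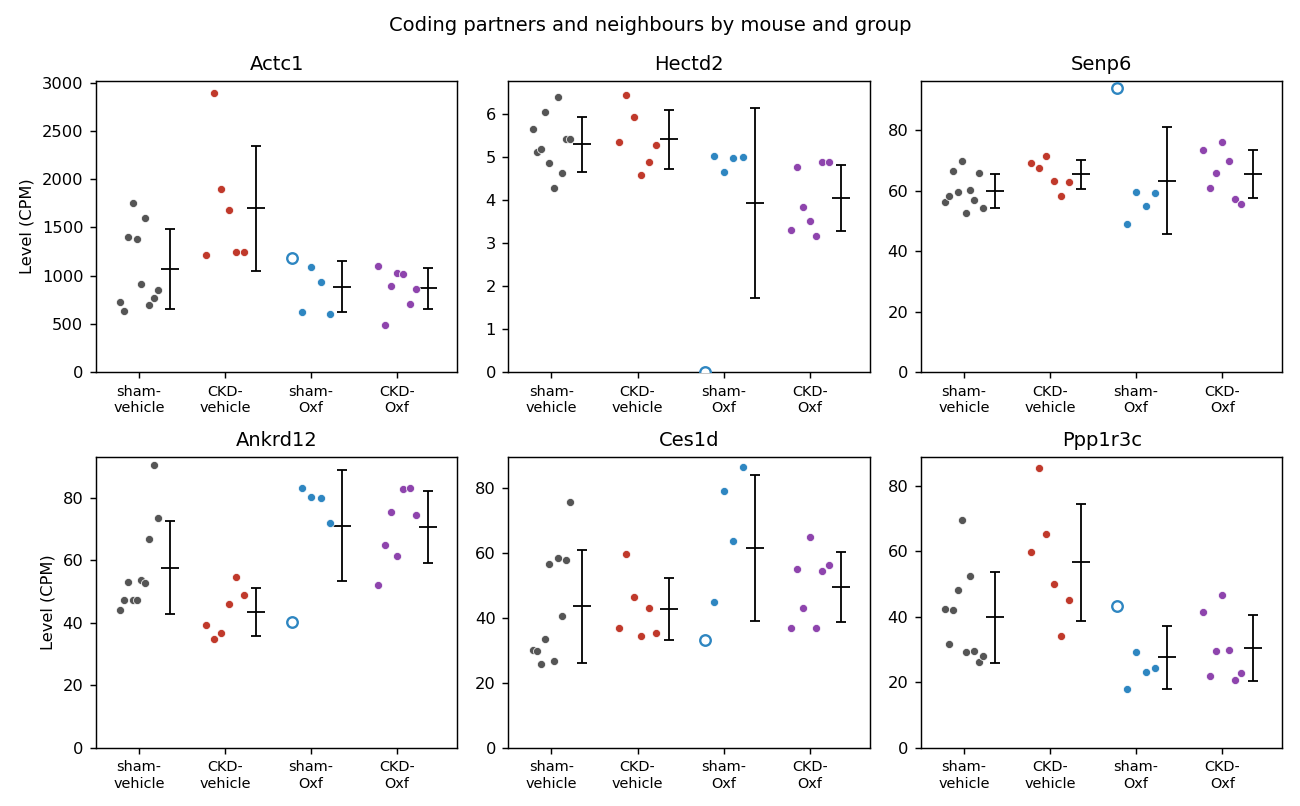
Levels in CPM of the coding partners and of Ppp1r3c in every mouse, with the group mean and SD beside the points and sham-Oxf replicate 1 as an open circle. Hectd2 is at 0 in that library, which sets the wide SD of its group, while the same library is the highest for Senp6 and the lowest for Ankrd12 and Ces1d within sham-Oxf.

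RP24-63G9.2 was highest in sham-Oxf. Its levels were 4.96 to 6.80 CPM (median 6.27) under sham-vehicle, 4.55 to 6.76 (median 5.69) under CKD-vehicle and 3.11 to 6.12 (median 5.28) under CKD-Oxf. For sham-Oxf the levels were 12.3, 7.59, 8.57, 8.35 and 7.00 CPM, with replicate 1 the highest of all. All 5 lay above every mouse of the other 3 groups, also the 4 without replicate 1. The means were 4.97 ± 1.13 for CKD-Oxf, 5.71 ± 0.75 for CKD-vehicle, 6.06 ± 0.69 for sham-vehicle and 8.76 ± 2.07 CPM for sham-Oxf, and the lower 3 each lay within 1 SD of the next.

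CKD-Oxf minus sham-Oxf chose RP24-63G9.2, with -0.81 ± 0.16 on the log2 scale and -0.66 without sham-Oxf replicate 1. It ranked first there, although no gene passed the threshold in that comparison. In mice that this comparison did not use, CKD-vehicle minus sham-vehicle was -0.08 ± 0.14 (edgeR adjusted p 0.957). Sham-Oxf minus sham-vehicle, which shares the sham-Oxf libraries, was 0.53 ± 0.15 (0.38 without replicate 1).

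Senp6 encodes a protease that trims chains of the small modifier SUMO from proteins. Its levels were 52.7 to 69.7 CPM (median 58.9) under sham-vehicle, 58.4 to 71.5 (median 65.4) under CKD-vehicle and 55.5 to 76.0 (median 66.0) under CKD-Oxf. In sham-Oxf the 5 values were 93.9, 49.0, 59.5, 54.9 and 59.3 CPM, with replicate 1 again the highest of all 28. CKD-Oxf minus sham-Oxf was 0.05 ± 0.12 (edgeR adjusted p 0.963) and 0.24 without replicate 1 (adjusted p 0.693). Sham-Oxf minus sham-vehicle was 0.08 ± 0.12 (adjusted p 0.833), and its sign turned to -0.11 without replicate 1. The groups of Senp6 overlapped in every pair.

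RP24-63G9.2 and Senp6 moved in opposite directions within CKD-vehicle. There r was -0.95 and rho -0.94 (exact permutation p 0.00833 and 0.0167, adjusted p of r 0.0208, n = 6), and r was -0.94 over the 4 mice left without the 2 farthest from the median. For CKD-Oxf r was -0.80 (exact permutation p 0.0323, adjusted p 0.0588, n = 7), and in sham-vehicle -0.27 (permutation p 0.444, n = 10). The CKD-Oxf relation passed with the clock score regressed out (r -0.97, adjusted p 0.00794), with DESeq2 size factors (adjusted p 0.0238) and without CKD-Oxf replicate 1 (0.0185). Over all 28 mice r was -0.05 (permutation p 0.828), and without sham-Oxf replicate 1, where both genes were at their highest, it was -0.60 (adjusted p 0.0159, n = 27). The pooled r was 0.10 without CKD-Oxf replicate 4 and 0.02 without CKD-Oxf replicate 7. With the 7SL share regressed out, r over 28 mice was 0.32, while in CKD-vehicle it was -0.88 (adjusted p 0.0525). In CKD-vehicle the mice with less Senp6 had more RP24-63G9.2. The noncoding gene was 8.84 ± 1.80% of Senp6 under CKD-vehicle and 10.19 ± 1.61% under sham-vehicle, against 14.0 ± 1.54% under sham-Oxf and 7.83 ± 2.56% under CKD-Oxf. The log2 ratio in CKD-vehicle minus sham-vehicle was -0.21 (two-sided exact permutation p 0.145, and -0.30 with p 0.0463 without CKD-vehicle replicate 5). Introns of Senp6 hold 2473 exonic bases of RP24-63G9.2. If the counting did not use strand, reads of unspliced Senp6 may count for RP24-63G9.2, and their part was not tested.

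RP23-404D8.10 was higher in both Oxf groups than in CKD-vehicle. Its levels were 5.29 to 14.7 CPM (median 8.11) under sham-vehicle, 4.99 to 8.47 (median 6.30) under CKD-vehicle and 11.0 to 16.1 (median 13.1) under CKD-Oxf. The 5 values of sham-Oxf were 12.3, 10.6, 13.0, 12.4 and 11.3 CPM. All 12 Oxf mice lay above all CKD-vehicle mice and above the sham-vehicle median. The means were 6.44 ± 1.37 for CKD-vehicle, 8.58 ± 2.64 for sham-vehicle, 11.9 ± 0.93 for sham-Oxf and 13.1 ± 1.88 CPM for CKD-Oxf, and the Oxf groups differed by less than the SD of CKD-Oxf.

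CKD-Oxf minus CKD-vehicle chose RP23-404D8.10, at 1.03 ± 0.18 on the log2 scale, the fourth gene in p. Sham-Oxf minus sham-vehicle, in other mice, was 0.47 ± 0.17 (edgeR adjusted p 0.255). It was 0.46 without sham-Oxf replicate 1 (adjusted p 0.523).

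Ankrd12, the source of the pseudogene, encodes an ankyrin repeat protein of the nucleus. It rose with Oxf averaged over surgery, by 0.50 ± 0.12 in log2 (edgeR adjusted p 0.0327). Its levels were 44.1 to 90.3 CPM (median 52.9) under sham-vehicle, 34.8 to 54.7 (median 42.6) under CKD-vehicle and 52.0 to 83.0 (median 74.5) under CKD-Oxf. Sham-Oxf had 40.2, 83.1, 80.1, 79.8 and 71.9 CPM, and replicate 1 was the lowest by far. CKD-Oxf minus CKD-vehicle was 0.70 ± 0.17 (adjusted p 0.158) and sham-Oxf minus sham-vehicle 0.30 ± 0.17 (adjusted p 0.453). The first of these passed with DESeq2 (adjusted p 0.0312) and limma voom (0.0051). The pseudogene was chosen in CKD-Oxf minus CKD-vehicle and may share reads with Ankrd12. For Ankrd12, that comparison and the averaged one are therefore not independent of the choice. Without sham-Oxf replicate 1 the averaged difference was 0.58 (adjusted p 0.01).

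With the clock score as a covariate the averaged difference of Ankrd12 turned to -0.17 (edgeR adjusted p 0.762), and with the 7SL share it was 0.37 (adjusted p 0.161). It passed in 16 of 28 fits that each left out 1 library, with adjusted p from 0.01 to 0.0806. It failed without sham-vehicle replicate 3, 4 or 5, CKD-vehicle replicate 1, 2, 3 or 4, sham-Oxf replicate 4 or 5, or CKD-Oxf replicate 3, 5 or 6.

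RP23-404D8.10 followed Ankrd12 within groups, with r 0.68 and rho 0.72 over 28 mice (permutation p 2e-05 and 5e-05, adjusted p of r 0.0004). Without sham-Oxf replicate 1 r was 0.83. In sham-vehicle r was 0.92 (permutation p 0.00014, n = 10), in CKD-vehicle 0.90 (exact permutation p 0.0208, n = 6) and in CKD-Oxf 0.57 (exact permutation p 0.181, n = 7). After regressing out the clock score, r over all mice was 0.22 (adjusted p 0.519). Within the groups by the same step it was 0.71 for sham-vehicle (adjusted p 0.0526), 0.64 for CKD-vehicle (0.317) and 0.91 for CKD-Oxf (0.0139). The CKD-Oxf relation also passed without its replicate 1 (r 0.88, adjusted p 0.0309), and that of CKD-vehicle did not with the 7SL share regressed out (0.86, 0.0525). The pseudogene stood at 14.8 ± 1.65% of Ankrd12 under sham-vehicle and 14.8 ± 1.43% under CKD-vehicle, against 18.2 ± 7.07% under sham-Oxf and 18.9 ± 3.05% under CKD-Oxf. The log2 ratio in sham-Oxf minus sham-vehicle was 0.23 (two-sided exact permutation p 0.2), and 0.03 without sham-Oxf replicate 1. At an identity of 99.66%, reads of the pseudogene and of the matching stretch of Ankrd12 cannot be told apart except at the 3 positions shown above, so the counts of RP23-404D8.10 are uncertain as a measure of a transcript of its own. The immunoglobulin genes around it had group means of at most 0.917 CPM. That highest mean was of Ighv5-6 in CKD-Oxf, where the median was 0 and the highest mouse had 5.85 CPM.

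**Figure D4:**
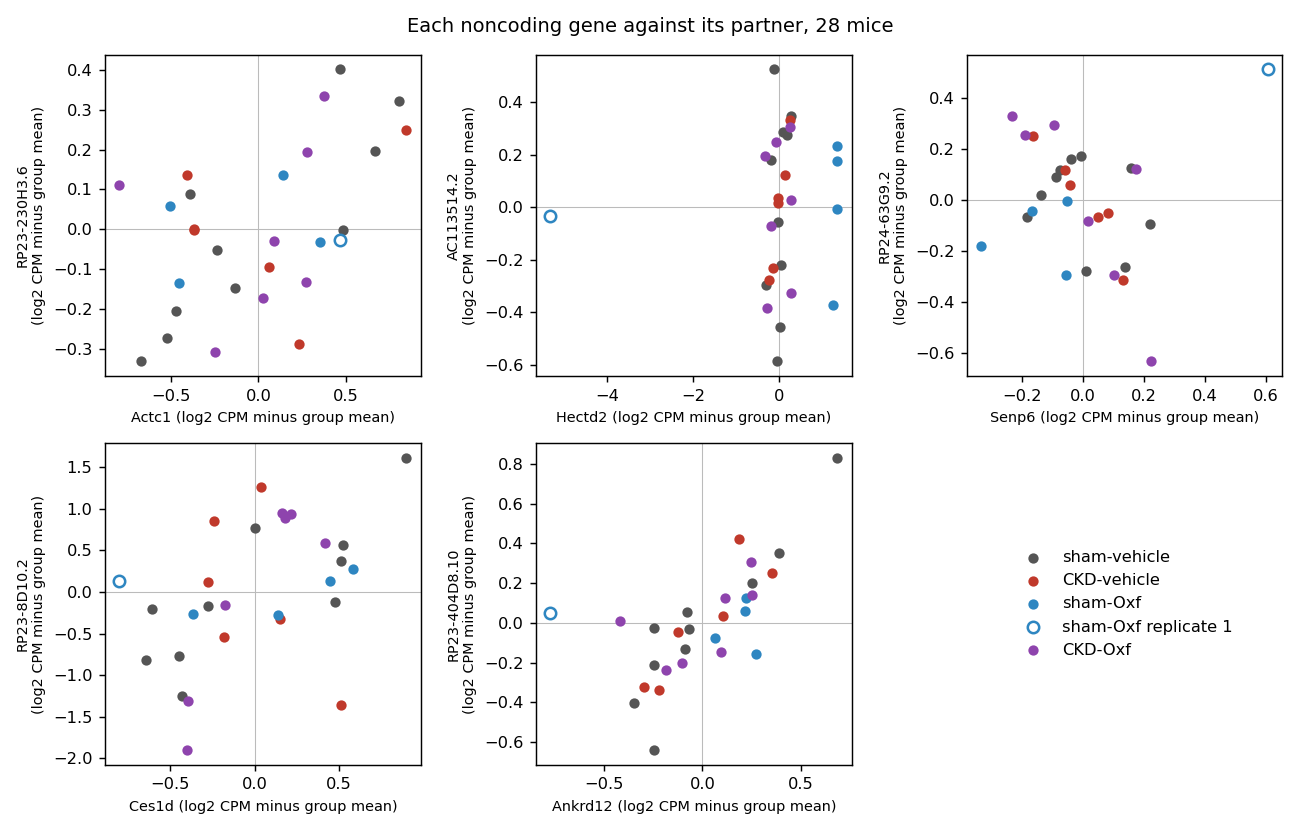
Each noncoding gene (y) against its partner (x) as log2 CPM minus the group mean, 1 point to a mouse, coloured by group, with sham-Oxf replicate 1 as an open circle. RP23-404D8.10 rises with Ankrd12 (r 0.68), and the open circle at 0 Hectd2 counts stretches the Hectd2 axis. For RP24-63G9.2 and Senp6, r is -0.05 over all mice. It is -0.60 once the open circle is set aside and 0.10 without CKD-Oxf replicate 4 instead.

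RP23-8D10.2 was chosen for its relation with mouse number in sham-vehicle, where it rose by 0.28 ± 0.04 on the log2 scale per mouse, ranked 3 of 18342 genes in p, behind the clock genes Arntl and Dbp. Of all genes tested 0.0327% passed there, a share again read for background alone. From mouse 901 to mouse 910 the levels were 0.71, 1.01, 0.97, 1.55, 1.6, 1.51, 2.61, 3.03, 2.28 and 5.45 CPM. The 3 lowest were the first 3 mice, and the highest was the last. In the 18 mice of the other groups the slope was 0.14 ± 0.07 (edgeR adjusted p 0.813). No gene passed there (0%), with 1245 genes at an unadjusted p under 0.05, 14 past the threshold with DESeq2 and 1 with limma voom. Within CKD-vehicle, r with mouse number was 0.88 and rho 0.89 (exact permutation p 0.025 and 0.0333, adjusted p of r 0.05 over 2 groups, n = 6), and r was 0.86 without the 2 mice farthest from the median. For CKD-Oxf r was 0.38 and rho 0.50 (exact permutation p 0.417 and 0.267, n = 7), and r was -0.22 with the 2 farthest mice left out.

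**Figure D5:**
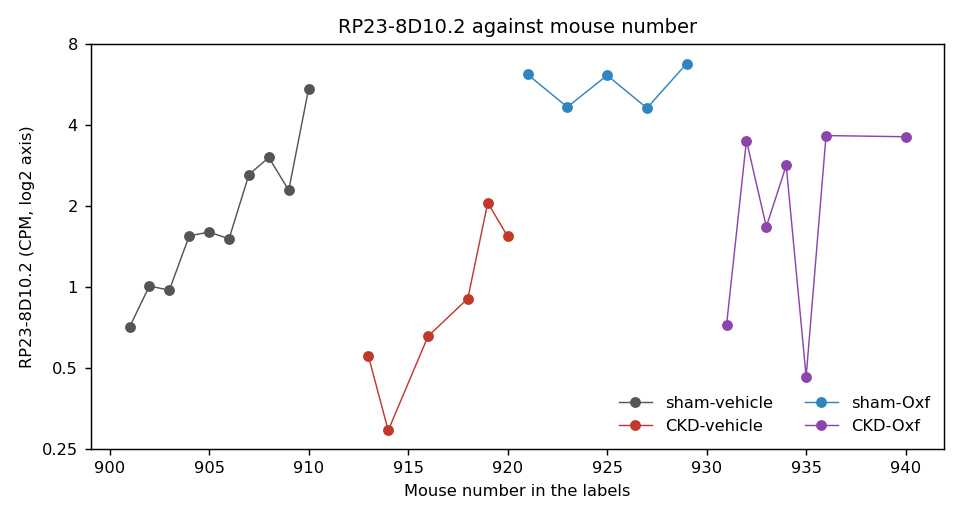
RP23-8D10.2 in CPM on a log2 axis against the mouse number in the labels, with lines joining the mice of a group. The level climbs from 0.71 to 5.45 CPM across sham-vehicle, and the sham-Oxf mice sit at 4.62 to 6.77 CPM above all CKD-Oxf mice.

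The group levels of RP23-8D10.2 were not used to choose it. It had 0.71 to 5.45 CPM (median 1.57) under sham-vehicle, 0.29 to 2.05 (median 0.78) under CKD-vehicle and 0.46 to 3.65 (median 2.83) under CKD-Oxf. For sham-Oxf the levels were 6.17, 4.66, 6.12, 4.62 and 6.77 CPM, above all mice of both CKD groups. The means were 1.00 ± 0.67 for CKD-vehicle, 2.07 ± 1.4 for sham-vehicle, 2.35 ± 1.38 for CKD-Oxf and 5.67 ± 0.97 CPM for sham-Oxf (SD, n = 6, 10, 7 and 5), with sham-vehicle and CKD-Oxf differing by less than their SDs. Its counts were low, from 14 to 260 in a library.

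RP23-8D10.2 rose with Oxf averaged over surgery, by 1.34 ± 0.33 in log2 (edgeR adjusted p 0.0341), and it was 1.33 without sham-Oxf replicate 1 (adjusted p 0.0352). The sham-vehicle libraries, whose slope chose this gene, are part of that comparison and of sham-Oxf minus sham-vehicle. Those p-values are therefore not independent of the choice. By gavage within each surgery, CKD-Oxf minus CKD-vehicle was 1.24 ± 0.48 (adjusted p 0.295) and sham-Oxf minus sham-vehicle 1.45 ± 0.44 (adjusted p 0.201). CKD-Oxf minus sham-Oxf was -1.27 ± 0.48 (adjusted p 0.42). With the clock score as a covariate the averaged difference turned to -0.18 (adjusted p 0.93), and with the 7SL share it was 1.14 (adjusted p 0.104). It passed in 19 of 28 fits that each left out 1 library, with adjusted p from 0.0131 to 0.0757, and failed without sham-vehicle replicate 4, CKD-vehicle replicate 1, 2, 3 or 4, sham-Oxf replicate 5, or CKD-Oxf replicate 2, 3 or 6.

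Ces1d, the gene around RP23-8D10.2, encodes a carboxylesterase that hydrolyses lipids. Its levels were 25.9 to 75.8 CPM (median 37.1) under sham-vehicle, 34.5 to 59.7 (median 39.9) under CKD-vehicle and 36.8 to 64.8 (median 54.3) under CKD-Oxf. In sham-Oxf the 5 values were 33.1, 44.8, 78.9, 63.6 and 86.5 CPM. The groups overlapped in every pair. Oxf minus vehicle averaged over surgery was 0.36 ± 0.17 (edgeR adjusted p 0.203, limma voom adjusted p 0.0121), and its sign turned to -0.29 with the clock score as a covariate. The slope on mouse number was 0.14 ± 0.04 in sham-vehicle, given with no test because this relation chose RP23-8D10.2 in the same mice. In the other groups it was 0.05 ± 0.03 (edgeR adjusted p 0.813). Ces1d belongs to a family of similar neighbouring genes, among which reads may be shared. Summed adipose markers (Adipoq, Plin1, Cidec and Fabp4), from fat where Ces1d is known to be abundant, overlapped between the groups, at 284 to 521 CPM under sham-vehicle and 208 to 331 under CKD-vehicle, against 203 to 334 under sham-Oxf and 169 to 474 under CKD-Oxf. None of these 4 markers was at 0 in all libraries, and their part in the levels of Ces1d was not tested.

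Over all mice RP23-8D10.2 and Ces1d had r 0.48 and rho 0.50, given with no test because the sham-vehicle mice among them chose the gene. This r was 0.53 without sham-Oxf replicate 1, 0.38 without sham-vehicle replicate 10 and 0.15 with the clock score regressed out. For CKD-Oxf r was 0.91 (exact permutation p 0.00833, adjusted p 0.0208, n = 7) and rho 0.68 (p 0.11). Without replicate 1, 2, 3, 5 or 7 it no longer passed, at r 0.88 to 0.92 and adjusted p 0.05 to 0.106. It was 0.69 over the 5 mice left without the 2 farthest from the median. For CKD-vehicle r was -0.58 (exact permutation p 0.233, n = 6). In sham-vehicle, where mouse number chose RP23-8D10.2, r was 0.80. The noncoding gene was 4.57 ± 1.73% of Ces1d under sham-vehicle and 2.53 ± 1.73% under CKD-vehicle, against 10.4 ± 4.77% under sham-Oxf and 4.42 ± 2.21% under CKD-Oxf. Between CKD-Oxf and sham-Oxf the log2 ratio differed by -1.35 (two-sided exact permutation p 0.00884, adjusted p 0.053 over 6 ratio comparisons), and by -1.11 without sham-Oxf replicate 1 (p 0.0424). Between CKD-Oxf and CKD-vehicle it differed by 0.96 (exact permutation p 0.144). Reads of unspliced Ces1d may count for RP23-8D10.2, and their part in its levels and in these relations was not tested.

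For scale, 1343 antisense genes with an overlapping coding gene on the other strand had a median r with it of 0.28, measured in the same way, and 69.3% of these values were above 0. Against all 24272 other genes, the share with a higher r than the partner was 5.03% for RP23-230H3.6 (Actc1), 37.7% for AC113514.2 (Hectd2), 43.6% for RP24-63G9.2 (Senp6), 0.935% for RP23-8D10.2 (Ces1d) and 0.260% for RP23-404D8.10 (Ankrd12). Without sham-Oxf replicate 1, a step added after seeing the data, these shares were 6.58%, 15.2%, 98.0%, 1.28% and 0%, in the same order of genes. Ankrd12 then had the highest r of all genes with its pseudogene, and Senp6 was among the lowest with RP24-63G9.2. Both shares of RP23-8D10.2 are a description with no test, because the sham-vehicle mice that chose the gene are among these mice.

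The genes most like each noncoding gene, were ranked by Pearson r of deviations from the group means over 28 mice. For RP23-230H3.6 they were Mrpl3 (a mitochondrial ribosomal protein, 0.76), Hhatl (0.76) and Slc25a12 (a mitochondrial carrier of aspartate and glutamate, 0.75). For AC113514.2 they were Mrpl33 (also a mitochondrial ribosomal protein, 0.72), Tcta (0.71) and Usp38 (a deubiquitinase, 0.71). RP24-63G9.2 was most like Alkbh3os1 (0.86), RP23-466P2.3 (0.86) and the bitter taste receptor gene Tas2r126 (0.83). RP23-404D8.10 was most like Lpin2 (a phosphatidate phosphatase, 0.82), Usp54 (0.77) and the clock gene Per3 (0.76). RP23-8D10.2 was most like Cys1 (a protein of the cilium, 0.70), Gm17258 (0.69) and Hlf (a transcription factor of the Dbp family, 0.69). Without sham-Oxf replicate 1 the order changed. Hlf then ranked first for RP23-8D10.2 (0.79) and Cys1 and Gm17258 ranked 9 and 10 (0.70 and 0.69). Tas2r126 ranked 13 for RP24-63G9.2 (0.79), Usp54 ranked 12 for RP23-404D8.10 (0.78), and Slc25a12, Mrpl3 and Hhatl ranked 6, 7 and 9 for RP23-230H3.6 (0.77, 0.77 and 0.76). The other 7 genes named ranked 1 to 4. The values over 28 mice were picked as the highest of at least 24269 genes and carry no test.

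Among lists around the coding genes, few members passed. Of 16 other actin and sarcomere genes, 1 fell with Oxf averaged over surgery, the troponin I gene Tnni3 (-0.72 ± 0.19, edgeR adjusted p 0.0447), and none rose, with a list median of -0.21 against 0.0031 over all genes. Of 19 other genes of the SUMO system, 1 rose, the SUMO ligase gene Pias4 (0.36 ± 0.10, edgeR adjusted p 0.0455), with a median of 0.02. Of 22 tested HECT ligase genes, 0 passed by edgeR, and the median was 0.03. For Oxf averaged over surgery, 2 of the 16, 6 of the 19 and 6 of the 22 genes had an unadjusted edgeR p under 0.05. Of all 24273 genes, 5584 did. Given the clock score as a covariate, 0 of all genes passed in that comparison, Tnni3 and Pias4 included. With no filter on low counts, Ankrd12, Ppp1r3c and RP23-8D10.2 each had an edgeR adjusted p of 0.0545 there. Of the 1450 tested genes of the antisense type, 5 passed for Oxf averaged over surgery (2 higher and 3 lower, 0.345%), beside 2.81% of all genes. AC113514.2, chosen in libraries that this comparison shares, is among the 3 lower genes. These shares were not matched for level.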

How the data were processed

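Total RNA of ventricular myocardium was sequenced from 28 mice, 1 library to a mouse, and the authors deposited raw counts per gene for each library. The build mm10 and the tools FastQC 0.11.7, MultiQC 1.9, STAR 2.6.1d, Subread and featureCounts 1.6.3 are named in the submitters' processing notes. The annotation, strand setting and treatment of reads with several alignments are not given in the sources used here. Of 45513 gene rows 1532 had no count, and 99.89% of the gene IDs were found in GENCODE M21, which gave positions and types. Depth was 19.8 to 65.4 M counts (median 38.1). Replicate numbers follow accession order and pair nothing. Each library is a separate mouse, so p-values measure the spread between mice, library preparation included.

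Counts were fitted with edgeR 4.0.16 (R 4.3.3): TMM factors, a filter at a minimum count of 10 by group, and robust quasi-likelihood tests on 4 group means over 24273 genes. Contrasts were the single comparisons, the averages over gavage and over surgery, and their interaction. Slopes on mouse number were fitted in sham-vehicle (18342 genes) and in the other mice with group means (23100 genes). P-values were adjusted by Benjamini-Hochberg over all genes tested, at 0.05. Standard errors are the log2 difference divided by the square root of F. Pair correlations used log2 CPM (prior count 2) minus group means, with 100000 permutations within groups, or all of them in a group under 10 mice, and groups of at least 6 mice. Ratios of CPM were compared by exact permutation. Alternatives used DESeq2 1.42.0, limma 3.58.1, other filters and scalings, clock and 7SL covariates, and libraries left out. The tests were checked on simulated data.

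The genes named beside the chosen ones are those within 50000 bases of a noncoding gene or the source of the pseudogene, the 3 most alike by correlation, and up to 6 past the threshold in each list of related genes. The genes, lists and tests were chosen with earlier results of these data known.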

Additional observations from a re-analysis of the deposited data

Results flagged for a closer look

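In 4 of 48 sets of a gene and a group, 1 mouse lay far from the rest, measured as its gap to the nearest other mouse divided by the whole range of the group. Chance flags about 1 in 20 such sets, or about 2.4 of 48. In sham-Oxf, replicate 1 was the lowest for Hectd2 (a share of 0.927 of the range, at 0 counts) and for Ankrd12 (0.739), and the highest for Senp6 (0.765). This is the library with the fewest genes detected, 15879, and its part in these values was not tested. In sham-vehicle, replicate 10, mouse 910, was the highest for RP23-8D10.2 (0.511, at 5.45 CPM).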

How the results depend on the processing

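No paired analysis was possible because the labels give no replicate numbers that groups share. The number of genes past the threshold moved with the setting. CKD-Oxf minus CKD-vehicle had 8 genes, and 14 with at least 10 counts in every library, 0 with the clock score, 5 with DESeq2 size factors, 190 with DESeq2, 3639 with limma voom and 5 with no filter; with 1 library left out it had 0 to 927, the highest without CKD-Oxf replicate 4. Oxf averaged over surgery had 681, against 1422, 0, 2133 (DESeq2), 5336 (voom), 132 (7SL share) and 161 (no filter), and 109 to 3362 with 1 library left out. CKD-vehicle minus sham-vehicle had 2, against 0 with the clock score, 1 with the compared groups only, 29 with DESeq2, 93 with voom, 22 with the 7SL share and 1 with no filter, and 0 to 1 with 1 library left out. CKD-Oxf minus sham-Oxf had 0, and 100 with DESeq2. Sham-Oxf minus sham-vehicle had 0, against 2 (clock), 131 (DESeq2), 34 (voom) and 141 (7SL), and 0 to 20 left out. Surgery averaged had 0, against 2, 113, 126 and 45, and 0 to 1. The slope in sham-vehicle had 6 genes, and 14 with DESeq2 (0 to 2 left out), and in the other mice 0, against 14 with DESeq2 and 1 with voom (0 to 1).

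Some signs turned, and the cause was not tested. With the clock score, Ankrd12 had -0.11 for CKD-Oxf minus CKD-vehicle, -0.23 for sham-Oxf minus sham-vehicle and -0.17 for the average, RP23-8D10.2 had -0.70 for CKD-Oxf minus CKD-vehicle and -0.18 for the average, Ces1d had -0.29 for the average, and Actc1 had 0.0936 for sham-Oxf minus sham-vehicle (0.0172 with the 7SL share). Actc1 in CKD-Oxf minus sham-Oxf was 0.0389 with voom (-0.134 to 0.102 left out). Senp6 was -0.0784 with the 7SL share in CKD-Oxf minus sham-Oxf (-0.0279 to 0.236 left out) and -0.0467 with voom in sham-Oxf minus sham-vehicle (-0.109 to 0.155). Of the correlations, RP23-230H3.6 with Actc1 was -0.23 within CKD-Oxf with the clock score (-0.0561 to 0.831). AC113514.2 with Hectd2 within CKD-Oxf was -0.29 with the clock score (-0.28 to 0.41). RP24-63G9.2 with Senp6 was 0.32 with the 7SL share (-0.60 to 0.10). Others kept their sign and no longer passed: RP23-230H3.6 with Actc1 at 0.44 with DESeq2 size factors and 0.39 with the 7SL share (0.45 to 0.59 left out), and RP23-404D8.10 with Ankrd12 at 0.22 with the clock score. RP23-8D10.2 with Ces1d, not tested over all mice, was 0.15 with the clock score (0.38 to 0.61 left out). Over all settings 777 of 889 log2 differences, 271 of 305 correlations and 81 of 83 ratio differences kept their direction and their side of the threshold. This tally includes the differences that chose the genes and others that share their libraries. It describes the settings and is no support for a result. Within CKD-vehicle mice were not left out 1 at a time from correlations, since 5 would remain, under the minimum of 6. Depth limits the precision of RP23-8D10.2, with 14 to 260 counts in a library, and of RP23-230H3.2, with 20 to 113.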
